A study of Mus musculus with 12 samples.

Results

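The genes described here mark spiral ganglion neurons and the glia that wrap them. Cell Recovery Solution was used to part the cochlear sensory epithelium from neurons and mesenchyme. A list of 34 genes was used, of which 24 mark neurons and 10 mark glia. Of these, 31 had a mean of at least 10 normalized counts over the 11 libraries and were tested among 18400 genes in all, namely 22 neuron and 9 glia genes. *Th* and *Neurod1* had means of 4.73 and 3.09 and were not tested, and *Mog* was not analysed here.

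RNA came from hair cells (HCs) and supporting cells (SCs) of both ears of 1 mouse pup per library, on a mixed background of C57BL/6 and CD1. Treated pups carried *Sox2-CreER* and 1 β-catenin flox(Exon3) allele, so that Cre, driven from *Sox2* and activated by tamoxifen, removes exon 3 and stabilizes β-catenin. Untreated pups were littermates with the β-catenin flox(Exon3)/+ allele and no Cre, and they received tamoxifen too. The mother was injected on day 1 or day 4 after delivery (named P1 and P4), tamoxifen reached the pups through the milk, and the tissue was taken at postnatal day 4 or day 7, respectively. The groups held 3 libraries each, except that P4 treated had 2 (its replicates 1 and 3). Its replicate 2 was not analysed here.

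Spiral ganglion neurons carry sound signals from the HCs to the brainstem. Type I neurons contact inner HCs and are wrapped in myelin by Schwann cells and satellite glia, whereas the thin type II neurons contact outer HCs. Peripheral nerve endings run within the epithelium itself, so that an epithelium freed of the ganglion can still hold neurites and the glia along them. Several list members are also known in HCs or SCs, among them the calcium-binding proteins calretinin (*Calb2*) and parvalbumin (*Pvalb*) and the release proteins SNAP25 (*Snap25*) and synaptotagmin 1 (*Syt1*). In bulk tissue, fewer cells of a type and less RNA per cell cannot be told apart.

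The checks of the labels were as follows. Each library summed to 41.2 to 44.2 M normalized counts. *Lgr5*, a Wnt target of SCs, was at 6352 to 9331 normalized counts in the 5 treated and at 2041 to 3934 in the 6 untreated libraries. *Xist* was at 2794 to 4180 in P1 untreated 2 and 3 and in both P4 treated libraries and at 13 to 39 in the other 7. The paper points to *Xist* as a sign of a possible bias from how female and male mice fell between groups. Its level was uneven in every comparison of groups, since P1 treated and P4 untreated libraries were all low. The members *Dcx*, *Syp* and *Syn1* lie on chromosome X. Among defining neuron genes, *Slc17a7* (the vesicular glutamate transporter of spiral ganglion neurons) was at 0 in 2 libraries and at 175 and 183 in P1 untreated 3 and P4 untreated 3. It was at most 40 in the other libraries. *Thy1* was at 0 in 6 libraries. *Slc17a7*, *Thy1* and *Lgr5* were named after their values were seen. Of 30 other neuron genes tested, 17 were highest of their group in P1 untreated 3 (56.7%, beside 31.4% of all genes). In P4 untreated 3 this held for 18 (60%, beside 32.3%), so that *Slc17a7* does not stand for all of them. HC genes were present throughout, and *Otof*, the calcium sensor for HC release, ranged from 4764 to 13147.

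Since both untreated replicates 3 stood apart in the neuron genes, as the next paragraphs give in detail, several results that rest on them are given with and without them.

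The members spanned a wide range of levels. Per kilobase of exon in the GENCODE annotation of GRCm38, *Calb2* had the highest mean with 4716 normalized counts per kb, followed by *S100b* (a calcium-binding protein of glia and SCs) with 2419, *Pvalb* with 2368 and *Syt1* with 1200. The leading myelin genes were *Cnp* with 875 per kb and *Pmp22* with 673. Neurofilament light chain (*Nefl*) had 718, whereas *Mapt*, which encodes tau, had 19.0 and *Ntrk3*, the receptor of neurotrophin 3, had 2.01. The genes known in HCs or SCs as well thus led this order. *Nefl* and *Nefm* overlap on opposite strands over 32.8% and 19.2% of their exon bases, and 54.2% of the exon bases of *Pllp* are shared with the antisense gene *Gm45767*. Since the use of strand in counting is not stated, reads of these pairs may not be told apart.

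**Figure D1:**
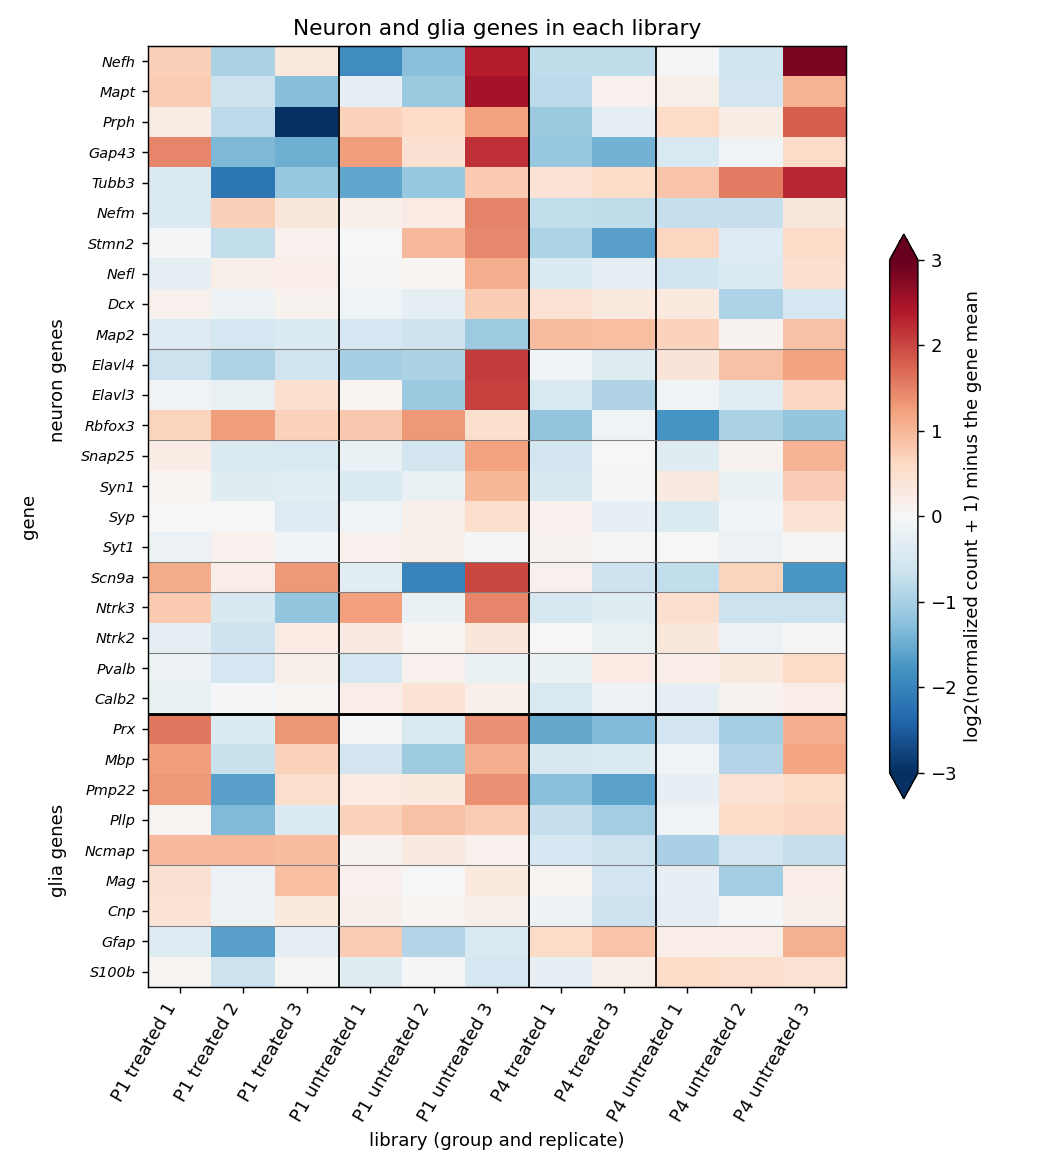
Heat map of the 31 tested genes (rows, neuron genes above the thick line and glia genes below it, grouped by role) in the 11 libraries (columns, by group and replicate). Colour gives log2(normalized count + 1) minus the gene's mean over all libraries. P1 untreated 3 and P4 untreated 3 are high in most neuron genes, whereas P1 treated 1 and 3 and both untreated replicates 3 are high in *Prx* and *Mbp*.

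Neuron genes were at their highest in P1 untreated 3 and P4 untreated 3. Of the 22 neuron genes, 18 had their highest value of all libraries in either of these (81.8%, beside 19.2% of all genes tested). In P1 untreated 3, 17 of 22 were above both other libraries of the group (77.3%, beside 31.4% of all genes), and over all 22 genes the median was 2.04-fold that of the other libraries of the group. In P4 untreated 3, this held for 16 of 22 (72.7%, beside 32.3%), and the median over all 22 genes was 1.54-fold. These counts are a description and carry no test, since libraries of the same group do not form a comparison. The 5 neuron genes that were not highest in P1 untreated 3 were *Map2*, *Rbfox3*, *Syt1*, *Calb2* and *Pvalb*.

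The mean level of the list shows the same libraries. It was computed as the mean log2(normalized count + 1) of the 22 neuron genes after each gene was centred on its mean over all libraries. The neuron level was 0.13, -0.38 and -0.29 in P1 treated 1, 2 and 3 and -0.10, -0.22 and 1.08 in P1 untreated 1, 2 and 3. At P4 it was -0.34 and -0.28 in treated 1 and 3 and -0.02, -0.10 and 0.52 in untreated 1, 2 and 3. Without those 2 untreated libraries, all levels lay between -0.38 and 0.13. *Calb2*, *Pvalb*, *Snap25*, *Syt1*, *Ntrk2* and *Ntrk3* were taken as known in HCs or SCs. Over the 16 neuron genes left without them, P1 untreated 3 stood at 1.31 and P4 untreated 3 at 0.64, with the other libraries from -0.40 to 0.17. Whether HCs or SCs express these 16 was not tested. *Map2* and *Rbfox3* are among the 16 and were lowest of the P1 untreated libraries in replicate 3. Another 30 neuron genes gave 0.94 and 0.74 in these libraries and -0.51 to 0.36 in the others. The values thus had the same order at the top in a list with no gene in common. That list was read in the same libraries and chosen with earlier results of these data known. Its order is therefore a description and no independent support. Of these 30 genes, 17 were highest of their group in P1 untreated 3 (56.7%, beside 31.4% of all genes). In P4 untreated 3 this held for 18 (60%, beside 32.3%). Of the 30, 11 and 9 were at least 2-fold above the others of the group in these libraries.

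Glia genes were high in a partly different set of libraries. The level of the 9 glia genes was 0.64, -0.62 and 0.45 in P1 treated 1, 2 and 3, 0.12, -0.11 and 0.47 in P1 untreated 1, 2 and 3, -0.47 and -0.58 in P4 treated 1 and 3, and -0.20, -0.20 and 0.51 in P4 untreated 1, 2 and 3. P1 treated 3 was therefore high in glia genes while below the mean in neuron genes. Within P1 treated libraries, replicate 1 was the highest for 7 of 9 glia genes and replicate 2 for 0 of 9; for all genes these shares were 31.98% and 35.3%. The other 21 Schwann and satellite glia genes stood at 0.61 and 0.51 in P1 treated 1 and 3, at 0.43 and 0.34 in both untreated replicates 3, and at -0.40 to 0.03 in the remaining libraries.

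Genes of other cell types differed between the libraries as well. HC genes were at their lowest in P1 untreated 3, where the 12 genes had a level of -0.85, beside -0.36 to -0.14 in the other P1 libraries and 0.26 to 0.60 at P4. SC genes too were lowest in P1 untreated 3, at -0.39, beside -0.13 to 0.23 in the other libraries. The 10 mesenchyme genes were at 0.52, -0.66 and -0.78 in P1 treated, 0.21, 0.35 and 0.60 in P1 untreated, -0.27 and -0.81 in P4 treated and 0.26, 0.38 and 0.19 in P4 untreated libraries. They were thus highest in P1 untreated 3, but P4 untreated 3 was the lowest of its group. Endothelial genes (5) had their highest level in P1 untreated 3, at 1.01, and erythroid genes (5) in P4 untreated 3, at 1.43. The 12 HC and 10 mesenchyme genes were all above 0 in every library. The part of these cells in the neuron and glia levels was not tested.

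**Figure D2:**
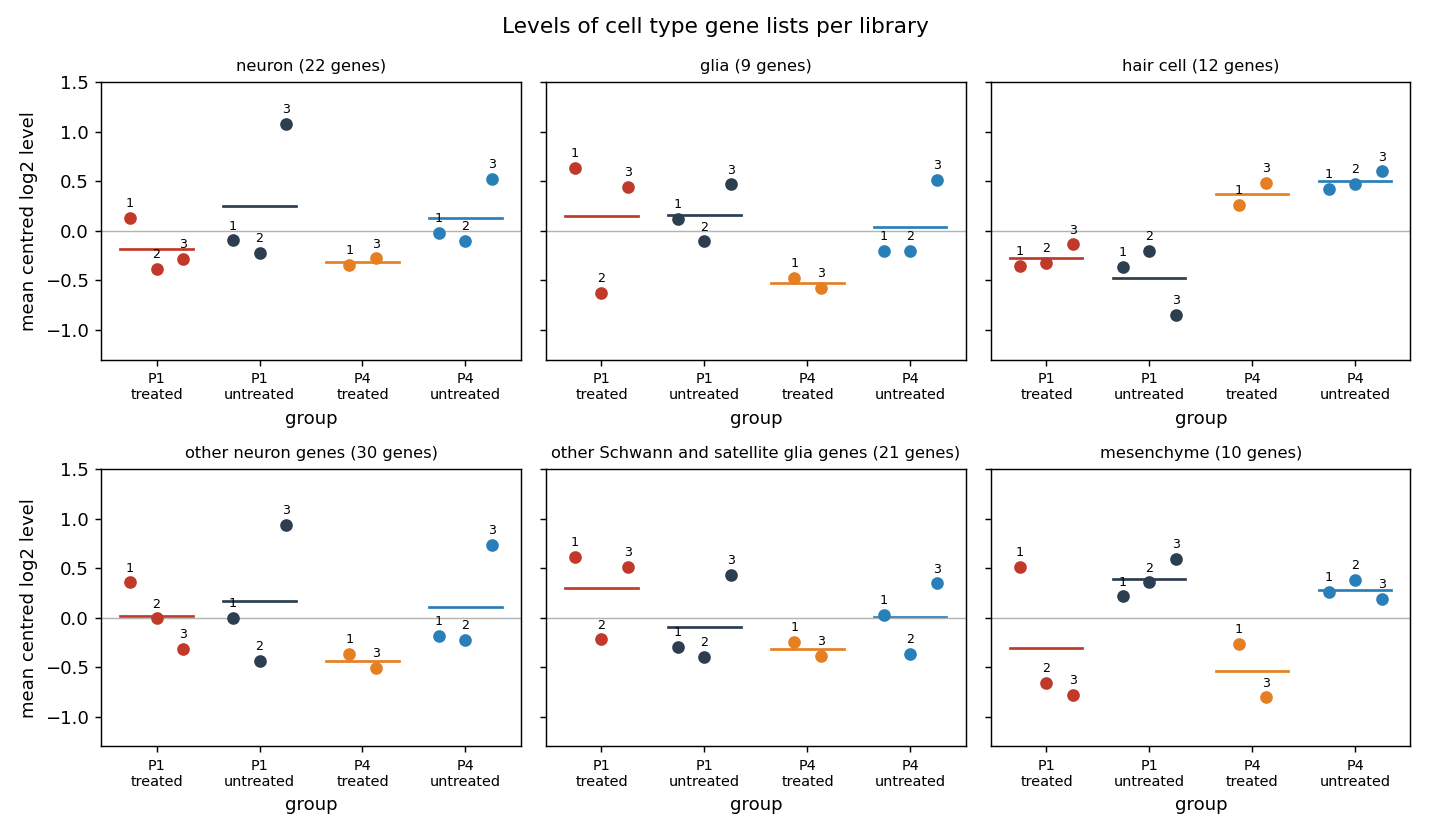
Level of 6 gene lists in each library. The y axis is the mean over the list of log2(normalized count + 1) centred per gene, points are libraries labelled with their replicate number, and lines are group means. Replicate 3 is the highest untreated library in both neuron lists at each age, at 1.08 and 0.52 in the upper left panel.

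Within a group, the members varied more between pups than most genes did. With all libraries, the median within-group SD was 0.60 on the log2 scale for neuron genes and 0.48 for glia genes, beside 0.23 for all genes tested. Lists of other cell types varied as much or more. The median was 0.71 for mesenchyme, 0.63 for endothelial, 0.81 for stria vascularis, 1.05 for erythroid and 0.54 for leukocyte genes. It was lower for HC genes (0.37) and SC genes (0.20). Of the neuron genes, 9 of 22 lay in the top 10% of all genes by this SD, and of the glia genes 3 of 9. The spread was largest for *Nefh*, with an SD of 1.63, and smallest for *Ncmap* and *Syt1*, each with 0.13.

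Axonal cytoskeleton and growth genes are given next. *Nefh*, the heavy neurofilament chain of large myelinated axons, was at 37, 57 and 706 in P1 untreated 1, 2 and 3 and at 133, 91 and 986 in P4 untreated 1, 2 and 3. In treated libraries it was at 227, 71 and 173 at P1 and at 81 and 81 at P4. Replicate 3 was 15.0-fold above the mean of the other P1 untreated libraries and 8.80-fold above that of the other P4 untreated libraries. *Mapt* was at 87, 47 and 582 in P1 untreated, 175, 66 and 42 in P1 treated, 117, 70 and 213 in P4 untreated and 59 and 113 in P4 treated libraries. *Gap43*, a growth cone protein, was at 236, 134 and 453 in P1 untreated, 272, 38 and 35 in P1 treated, 71, 91 and 147 in P4 untreated and 44 and 36 in P4 treated libraries. For both genes P1 untreated 3 was the highest of all libraries. *Nefl* and *Nefm*, the light and medium chains, ranged from 1524 to 4887 and from 739 to 3508, also with the top value in P1 untreated 3. *Prph* (peripherin, found in type II neurons) was at 0 to 29 normalized counts.

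RNA-binding and synaptic genes repeated this in part. *Elavl4*, a neuronal RNA-binding protein, was at 58, 60 and 507 in P1 untreated 1, 2 and 3, at 61 to 77 in P1 treated libraries, at 154, 215 and 269 in P4 untreated 1, 2 and 3 and at 111 and 90 in P4 treated libraries. P1 untreated 3 was far above its group, and the P4 untreated libraries lay above the P4 treated libraries without overlap. *Snap25* was at 761 and 673 in the untreated replicates 3 and at 224 to 384 in all other libraries, and the synapsin gene *Syn1* was at 403 and 336 there and at 145 to 244 elsewhere. *Syt1* lay between 8762 and 11051 and *Calb2* between 5869 and 10746, and both were lowest of the P1 untreated libraries in replicate 3, at 9585 and 8997. The remaining neuron genes were the vesicle protein gene *Syp* at 419 to 826, *Dcx* (doublecortin of migrating neurons) at 61 to 201, *Elavl3* at 6 to 61, the sodium channel gene *Scn9a* at 4 to 79 and the neurotrophin receptor genes *Ntrk2* and *Ntrk3* at 1661 to 3329 and 22 to 143. Each of these 6 had its highest value of all libraries in P1 untreated 3.

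Among the myelin genes, *Mbp* and *Prx* were high in the same 4 libraries. *Mbp*, myelin basic protein, was at 6111, 1630 and 4181 in P1 treated 1, 2 and 3, at 1714, 1218 and 5469 in P1 untreated 1, 2 and 3, at 1847 and 1933 in P4 treated 1 and 3 and at 2350, 1407 and 5798 in P4 untreated 1, 2 and 3. *Prx*, which encodes periaxin of Schwann cells, was at 1088, 275 and 919, at 353, 266 and 945, at 125 and 146 and at 243, 179 and 778 in the same order. Both genes were high in P1 treated 1 and 3 and in the untreated replicates 3. *Pmp22*, a peripheral myelin protein, was at 3154, 409 and 1839 in P1 treated, 1515, 1559 and 3324 in P1 untreated, 535 and 418 in P4 treated and 1079, 1720 and 1872 in P4 untreated libraries, so that it was high in P4 untreated 2 as well as 3. *Ncmap* and *Pllp*, whose values are given with the treatment at P1, were not highest of their group in either untreated replicate 3, save *Pllp* at P4. *Gfap*, a glial filament gene, was at 11 to 76, and *Mag*, which faces the axon in myelin, at 75 to 290.

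Treated and untreated pups were then compared at P1, which asks whether stabilized β-catenin in *Sox2* lineage cells went along with other levels of these genes. None of the 22 neuron and none of the 9 glia genes passed the test (limma with Benjamini-Hochberg adjustment, threshold 0.05, and a minimum size of the fold change), beside 0.353% of all genes tested. At an unadjusted p under 0.05, 4 neuron genes were lower (*Prph*, *Stmn2*, *Gap43* and *Ntrk2*) and 0 higher, whereas the glia genes *Ncmap* and *Pllp* were higher and lower, respectively, beside 12.2% of all genes at this threshold. Under the alternatives 0 to 1 neuron and 0 to 1 glia genes passed. The groups did not overlap for 2 neuron genes, both lower, and for 2 glia genes, beside 15.3% of all genes tested.

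The median log2 fold change of the neuron genes at P1 differed with and without P1 untreated 3. It was -0.33 with all libraries, with 17 of 22 genes lower in treated libraries, beside a median of 0.00 over all genes tested. Without both untreated replicates 3 it was 0.03, with 9 of 22 lower. These libraries were picked for their high values in the same genes, so that a rise of the median without them follows from that choice. *Elavl4* went from -0.78 (SE 0.680) to 0.25 (0.270), *Tubb3* from -0.61 (0.613) to 0.10 (0.462) and *Nefh* from 0.29 (1.11) to 1.596 (0.485). None of these passed the test either way, with limma adjusted p of 0.484 to 0.987 without the libraries. For 9 glia genes the median was 0.13 with and 0.10 without the libraries.

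*Ncmap* and *Pllp* were the members with the smallest p at P1, in opposite directions. *Ncmap*, a membrane protein of noncompact peripheral myelin, was at 562, 555 and 545 in P1 treated and at 305, 342 and 310 in P1 untreated libraries. The groups did not overlap, and the log2 fold change was 0.80 (standard error, SE, 0.147, limma adjusted p = 0.0599), short of the threshold. It passed with quantile normalization, at 0.88 and an adjusted p of 0.0428 from limma. *Pllp*, plasmolipin, was at 280, 104 and 196 in P1 treated and at 421, 487 and 443 in P1 untreated libraries. It differed by -1.33 on the log2 scale (standard error 0.328, limma adjusted p = 0.142), and without P1 treated 1 it passed, at -1.65 with an adjusted p of 0.0322. *Gap43* too passed without P1 treated 1, at -2.70 with an adjusted p of 0.0282, and not with all libraries, at -1.75 with an adjusted p of 0.361 from limma.

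Among the wider lists, the treatment comparison at P1 called 1 of 30 other neuron genes and 1 of 21 other glia genes, beside 0.353% of all genes. *Dpysl3*, a collapsin response mediator of growing neurites, was at 2789 ± 502 (SD, n = 3) with treatment at P1 and 5848 ± 860 (SD, n = 3) without it, so that the log2 fold change was -1.07 ± 0.167 (standard error) and the limma adjusted p 0.0356. *Sox2*, shared by SCs and glia, was lower with treatment by 0.67 on the log2 scale (SE 0.101, limma adjusted p = 0.0300). *Sox2* is also the gene that drives Cre in the treated pups. The paper counts lower *Sox2* in knock-in alleles such as *Sox2-CreER* among its limits. All treated and no untreated pups carried that allele. Its effect and that of stabilized β-catenin thus cannot be told apart in any comparison by treatment. Of 12 SC genes, a list that includes *Sox2* and *Lgr5*, 3 passed as higher and 1 as lower, beside 0.353% of all genes. Of 10 mesenchyme genes, 1 passed (higher). At an unadjusted p under 0.05, 5 mesenchyme genes were lower, beside 12.2% of all genes in either direction, with a list median of -0.98. Their summed level was 140884 to 225663 in P1 treated and 172543 to 213253 in P1 untreated libraries. Of 6 leukocyte genes, 0 passed with limma and 5 were lower at an unadjusted p under 0.05, with a median of -1.17 and summed levels of 1182 to 2338 and 2568 to 3408. The part of these cells in the result was not tested.

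At P4, none of the 22 neuron and none of the 9 glia genes passed the test between treated and untreated libraries with limma, beside 0.0543% of all genes tested. At an unadjusted p under 0.05, 1 neuron gene (*Stmn2*) and 3 glia genes (*Pmp22*, *Pllp* and *S100b*) were lower and 0 higher, beside 11.6% of all genes, and no alternative made a call. The groups did not overlap for 9 neuron genes, 8 of them lower, and for 4 glia genes, all lower, beside 33.5% of all genes tested. *Stmn2*, a microtubule regulator of growing axons, was at 248 and 150 in P4 treated and at 739, 356 and 699 in P4 untreated libraries. Its log2 fold change was -1.55 (SE 0.461, limma adjusted p = 0.285). *Pmp22*, whose gene dosage underlies inherited neuropathy, was at 535 and 418 in P4 treated and at 1079, 1720 and 1872 in P4 untreated libraries, and the log2 fold change was -1.68 (SE 0.694, limma adjusted p = 0.393). Treated values of these genes lay below all untreated values.

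The median log2 fold change at P4 was -0.37 for neuron and -0.50 for glia genes, beside 0.00 for all genes tested, and without both untreated replicates 3 it was -0.22 and -0.23. Both P4 treated libraries were high in *Xist* and all 3 P4 untreated libraries low, so that treatment and *Xist* cannot be told apart here. For mesenchyme genes the groups did not overlap in 7 of 10 cases with lower treated values, beside 33.5% of all genes in either direction. The median of the mesenchyme genes was -0.84. Their summed level was 195516 to 221316 in P4 treated and 204081 to 228797 in P4 untreated libraries. Their part in the result was not tested.

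**Figure D3:**
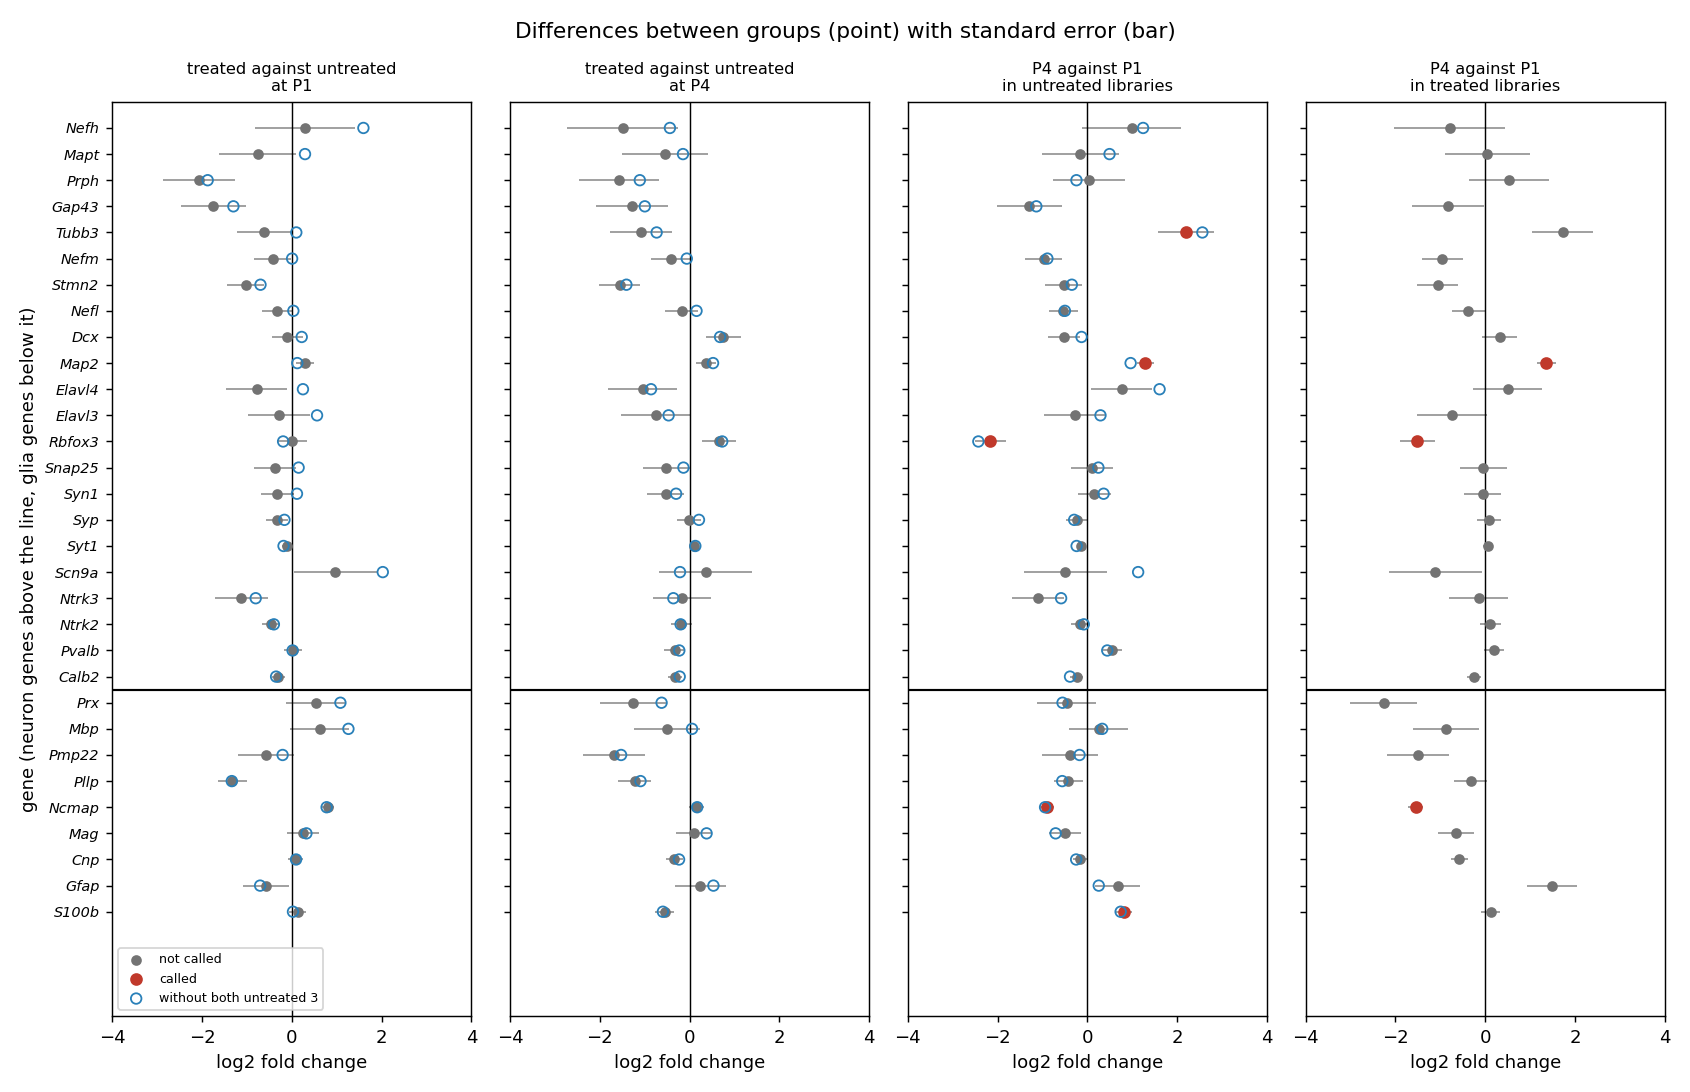
Log2 fold change of each tested gene in 4 comparisons, with neuron genes above the line and glia genes below it. Filled points are the values with all libraries, bars the standard error, red points genes that passed the test, and open circles the values without both untreated replicates 3. At P1 the open circles of *Nefh*, *Mapt*, *Elavl4* and *Tubb3* lie right of the filled points, and red points appear in the comparisons of age alone.

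Age was compared between untreated libraries, P4 against P1, which follows these genes through the days in which myelination of the ganglion begins. Of 22 neuron genes, 2 were higher at P4 and 1 was lower, and of 9 glia genes 1 was higher and 1 lower, beside 19.9% of all genes tested. The share of members that passed, 5 of 31, was thus near that of all genes. The groups did not overlap for 4 neuron and 3 glia genes, beside 41.3% of all genes. The median log2 fold change was -0.20 for neuron and -0.39 for glia genes, beside -0.02 for all genes tested. Without both untreated replicates 3 it was -0.10 and -0.25, beside -0.03 for all genes tested.

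Promoters of the 5 genes that passed between untreated ages are shown, since they bear the only calls of age among the members. They hold the 250 bases before and 50 bases after a RefSeq transcription start on GRCm38.p6, 5′ to 3′ on the gene's strand. Capitals mark matches on either strand to the SOX motif (ACAAAG or ACAATG), which is found in 28.6% of 32851 mouse promoters. The motif TCAAAG, bound by TCF/LEF partners of β-catenin, is found in 16.0% of these promoters and in none of the 5 shown. The gene *Map2* lies on chromosome 1 from 66175273 to 66442583 (plus strand), *Tubb3* on chromosome 8 from 123411424 to 123422015 (plus strand), *Rbfox3* on chromosome 11 from 118489762 to 118911597 (minus strand), *S100b* on chromosome 10 from 76253853 to 76261159 (plus strand) and *Ncmap* on chromosome 4 from 135369576 to 135398227 (minus strand). The windows overlap the 5′ end of the gene, except that of *Rbfox3*, which starts from an inner transcript of that gene.
Map2 (chr1:66175079-66175378, plus strand): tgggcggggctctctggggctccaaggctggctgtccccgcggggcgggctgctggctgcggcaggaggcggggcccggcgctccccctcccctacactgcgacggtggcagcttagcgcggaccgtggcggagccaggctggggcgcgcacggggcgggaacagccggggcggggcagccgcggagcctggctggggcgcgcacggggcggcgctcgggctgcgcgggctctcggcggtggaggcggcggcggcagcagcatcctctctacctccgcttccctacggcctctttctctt
Tubb3 (chr8:123411303-123411602, plus strand): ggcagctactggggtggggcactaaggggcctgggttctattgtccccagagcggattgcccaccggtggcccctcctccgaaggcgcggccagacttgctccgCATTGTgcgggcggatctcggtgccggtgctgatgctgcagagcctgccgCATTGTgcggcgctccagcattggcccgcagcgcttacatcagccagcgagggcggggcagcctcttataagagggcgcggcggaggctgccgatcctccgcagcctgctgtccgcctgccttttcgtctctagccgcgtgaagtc
Rbfox3 (chr11:118760992-118761291, minus strand): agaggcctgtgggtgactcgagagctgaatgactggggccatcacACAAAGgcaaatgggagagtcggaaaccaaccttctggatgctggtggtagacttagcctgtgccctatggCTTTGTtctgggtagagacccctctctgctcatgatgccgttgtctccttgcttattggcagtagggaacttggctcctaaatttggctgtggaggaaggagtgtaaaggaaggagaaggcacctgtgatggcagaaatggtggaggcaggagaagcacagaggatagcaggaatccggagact
S100b (chr10:76253586-76253885, plus strand): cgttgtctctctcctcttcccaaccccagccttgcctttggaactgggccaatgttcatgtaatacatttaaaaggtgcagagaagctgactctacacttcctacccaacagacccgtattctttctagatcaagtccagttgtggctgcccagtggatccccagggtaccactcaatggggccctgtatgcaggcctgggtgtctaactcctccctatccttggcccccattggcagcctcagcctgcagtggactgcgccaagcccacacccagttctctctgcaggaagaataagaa
Ncmap (chr4:135398178-135398477, minus strand): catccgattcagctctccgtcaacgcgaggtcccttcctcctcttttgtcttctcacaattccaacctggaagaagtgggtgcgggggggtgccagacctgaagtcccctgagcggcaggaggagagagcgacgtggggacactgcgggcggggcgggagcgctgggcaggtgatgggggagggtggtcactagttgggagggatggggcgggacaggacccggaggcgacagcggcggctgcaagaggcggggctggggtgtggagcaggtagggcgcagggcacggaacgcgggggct

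In these windows, *Rbfox3* and *Tubb3* had 2 SOX matches each and *Map2*, *S100b* and *Ncmap* had 0. Of the 34 genes, 24 had a RefSeq promoter off chromosome 18, and 9 of these held a SOX match in at least 1 of their windows. A TCF/LEF match was present for 1 (*Th*), a match to the EGR motif GCGTGGGCG for 1 (*Neurod1*, beside 0.612% of all promoters), and a match to TTCAGCACC, the left part of the RE1 element of neuronal genes, for 1 (*Syn1*, beside 0.371%). Its right part, GGACAGCG, was in 0 of the 24 (beside 1.26%). The 24 genes had 36 windows in all. These counts are by gene, whereas the shares of all promoters are by window, so the 2 are not like for like. Motifs were searched on both strands, and SOX and TCF/LEF matches can share bases. A match is a description of letters and was not tested for binding.

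*Map2* and *Tubb3*, both parts of the microtubule cytoskeleton, rose with age. *Map2*, a dendritic microtubule-associated protein, was at 1724, 1565 and 1145 in P1 untreated and at 3938, 2608 and 4442 in P4 untreated libraries. The log2 fold change was 1.29 (SE 0.194, limma adjusted p = 0.0016) with no overlap. *Tubb3*, the neuronal class of β-tubulin, was at 99, 135 and 511 in P1 untreated and at 537, 880 and 1419 in P4 untreated libraries, with 2.20 (SE 0.613, limma adjusted p = 0.0292). In both groups of *Tubb3*, replicate 3 was the highest, and its call was lost without P1 untreated 1, P1 untreated 2, P4 untreated 2 or P4 untreated 3, with adjusted p of 0.0994, 0.0858, 0.0663 and 0.105, and without a variance trend, with 0.0527. Without both replicates 3, the log2 fold change of *Tubb3* was 2.56 (adjusted p = 0.0251 from limma) and that of *Map2* 0.96 (adjusted p = 0.0196). Over all alternatives, limma adjusted p was 0.000645 to 0.0218 for *Map2* and 0.00686 to 0.105 for *Tubb3*.

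*Rbfox3*, which encodes the nuclear neuron marker NeuN, fell with age. It was at 393, 548 and 309 in P1 untreated and at 64, 114 and 99 in P4 untreated libraries, and the log2 fold change was -2.16 (SE 0.340, limma adjusted p = 0.0020). Replicate 3 was the lowest of the P1 untreated libraries, as it was for *Map2*, *Syt1* and *Calb2*. Over all alternatives, *Rbfox3* had log2 fold changes of -2.43 to -1.92 and limma adjusted p of 0.00135 to 0.0192. *Elavl4* passed without both untreated replicates 3, at 1.61 (SE 0.295, limma adjusted p = 0.0202), and not with them, at 0.77 (SE 0.680, adjusted p = 0.455). These libraries were picked for their high neuron genes, and *Elavl4* was highest of all in P1 untreated 3. A larger rise with a smaller SE without them follows from that choice. *Pvalb*, at 1675, 2644 and 2053 in P1 untreated and 2766, 2963 and 3552 in P4 untreated libraries, had a log2 fold change of 0.56 and an adjusted p of 0.0818 from limma. It passed without P1 untreated 2, with an adjusted p of 0.0431.

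Of the glia genes, *S100b* rose and *Ncmap* fell with age in untreated libraries. *S100b* was at 2709, 3364 and 2446 in P1 untreated and at 5106, 4991 and 4682 in P4 untreated libraries, and the log2 fold change was 0.81 (SE 0.187, limma adjusted p = 0.0129). Its call was lost without P1 untreated 3 (0.71, adjusted p = 0.0525), without both replicates 3 (0.74, adjusted p = 0.102) and with log2 *Xist* as a covariate (0.88, adjusted p = 0.0542). *Ncmap* was at 145, 194 and 176 in P4 untreated libraries, and the log2 fold change was -0.90 (SE 0.147, limma adjusted p = 0.0024). Without both replicates 3 it was -0.94 (adjusted p = 0.0303). Over all alternatives, limma adjusted p was 0.00303 to 0.102 for *S100b* and 0.00125 to 0.0303 for *Ncmap*. *Mbp*, *Prx* and *Pmp22* did not pass, with log2 fold changes of 0.25, -0.46 and -0.39 and standard errors of 0.657, 0.665 and 0.621.

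HC genes rose over the same interval in 5 of 12 cases and fell in 1, beside 19.9% of all genes tested. The median log2 fold change of the HC genes was 0.40. Their summed level was 25133 to 41361 in P1 untreated and 51366 to 60082 in P4 untreated libraries. *Pvalb*, *Calb2* and *S100b* are shared with HCs or SCs, and the part of those cells in the differences with age was not tested. *Map2* and *Rbfox3* were lowest of the P1 untreated libraries in replicate 3, where most neuron genes were highest. *Ncmap* had a within-group SD of 0.13, beside 0.97 for *Mbp* and 0.98 for *Prx*. Which cells carried the differences of *Map2*, *Rbfox3* and *Ncmap* was not tested either. Of the wider lists, 4 of 30 other neuron genes rose (*Runx1*, *Uchl1*, *Vamp1* and *Kif5a*, by 0.69 to 1.04 on the log2 scale) and 2 fell (*Dpysl3* and *Cntnap2*, by 0.65 and 0.79). *Uchl1*, a ubiquitin hydrolase, was at 12350 ± 1820 (SD, n = 3) normalized counts at P1 and at 19926 ± 2429 (SD, n = 3) at P4. Of 21 other glia genes, *Fabp7* and *Dhh* rose by 0.82 and 1.66 and *Gfra3* and *Egr2* fell by 2.46 and 3.09. In both wider lists the share that passed was near the 19.9% of all genes tested. *Egr2*, a transcription factor of myelinating Schwann cells, was at 1334, 2851 and 2067 in P1 untreated and at 138, 315 and 289 in P4 untreated libraries (adjusted p = 0.00366 from limma). Of the P1 untreated libraries, *Egr2* was highest in replicate 2, where *Mbp* was lowest. Which cells carried its difference was not tested.

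**Figure D4:**
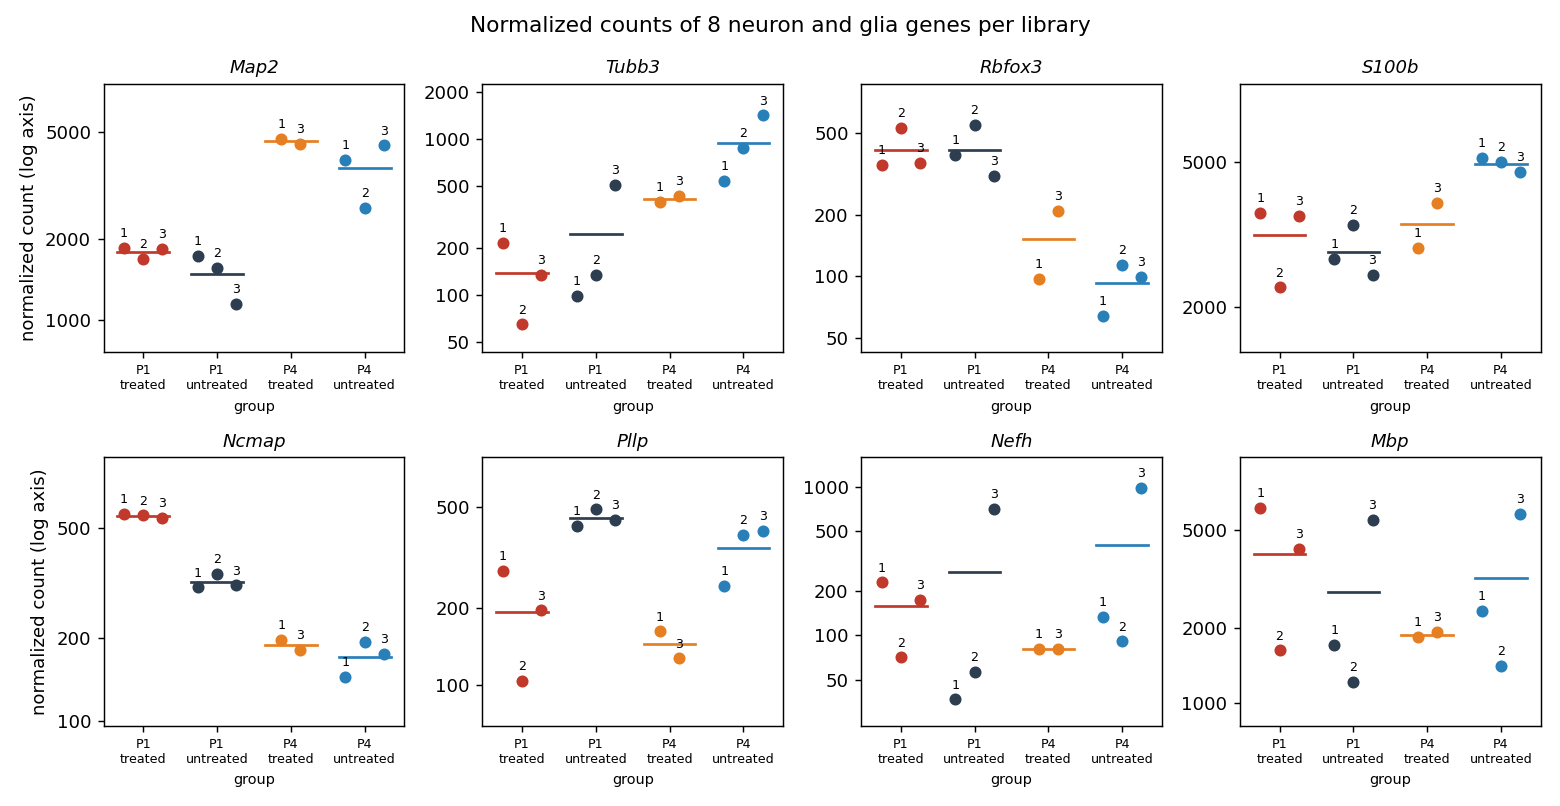
Normalized counts of 8 genes on log axes, with a point for each library labelled with its replicate number and a line at the arithmetic mean of the group. *Map2* and *Ncmap* separate the ages in both treated and untreated libraries, whereas *Nefh* and *Mbp* reach 706 to 986 and 5469 to 5798 in untreated replicates 3.

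In treated libraries, *Map2* was again higher at P4 and *Rbfox3* and *Ncmap* lower. These 3 of 31 members passed, beside 11.1% of all genes tested. The groups did not overlap for 9 neuron and 3 glia genes, beside 43.1% of all genes tested. *Map2* was at 1850, 1685 and 1837 in P1 treated and at 4702 and 4513 in P4 treated libraries, and the log2 fold change was 1.36 (SE 0.217, limma adjusted p = 0.0051). *Rbfox3* was at 352, 531 and 358 and at 97 and 208, with -1.51 (SE 0.381, limma adjusted p = 0.0312). Its call was lost without P1 treated 1, 2 or 3 or P4 treated 1, with adjusted p of 0.0505 to 0.241, and without both untreated replicates 3, which share its variance estimate, with an adjusted p of 0.0527. *Ncmap* was at 197 and 181 in P4 treated libraries, with -1.55 (SE 0.165, limma adjusted p = 9e-04).

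P1 treated 2 bore on this comparison. It was the lowest library by the 9 glia genes (-0.62), but not by the 21 other glia genes (-0.22). Nor was it lowest by the 5 left without *Pmp22*, *S100b*, *Gfap* and *Cnp*, which were taken as known in HCs or SCs (-0.32). Without it 4 glia genes passed, all lower at P4. These were *Ncmap*, *Pmp22* (-2.35, adjusted p = 0.0115 from limma), *Prx* (-2.88, adjusted p = 0.0322) and *Cnp* (-0.75, adjusted p = 0.0249). With all libraries the latter 3 had log2 fold changes of -1.49, -2.26 and -0.58 and adjusted p of 0.194, 0.0782 and 0.0765. *Xist* was low in all 3 P1 treated libraries but high in both from P4, so that age and *Xist* cannot be told apart among treated libraries. With log2 *Xist* as a covariate none of the 3 calls was kept, while the log2 fold changes were 1.69 for *Map2*, -1.48 for *Rbfox3* and -1.65 for *Ncmap* with larger SEs of 0.359, 0.671 and 0.290 (limma adjusted p of 0.132, 0.372 and 0.0805). Of 21 other glia genes, *Fabp7* and *Sox2* rose by 0.92 and 0.51 and *Ugt8a* and *Egr2* fell by 0.80 and 3.86, beside 11.1% of all genes that passed. Of 30 other neuron genes, 0 passed with limma, and at an unadjusted p under 0.05 there were 3 higher and 4 lower, beside 27.5% of all genes.

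Whether the effect of treatment differed between the ages was tested by the interaction of treatment and age. No member passed, beside 0.0% of all 18400 genes. At an unadjusted p under 0.05, 0 neuron genes and 2 glia genes were found, beside 5.8% of all genes, namely *Ncmap* with -0.65 (SE 0.221, limma adjusted p = 0.82) and *S100b* with -0.69 (SE 0.281, limma adjusted p = 0.82). *Ncmap* was thus higher in treated libraries at P1 by 0.80 and at P4 by 0.15 on the log2 scale, a difference that did not pass. No alternative made a call among the members.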

How the data were processed

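RNA of cochlear HCs and SCs was converted to cDNA with SMARTer V4, made into libraries with ThruPLEX and read single-end on a NextSeq by the authors, who aligned reads with STAR 2.5.2b to mm10. Their Methods also name Sailfish and tximport. The deposited table holds, as a score, counts divided by a size factor and rounded to whole numbers by the authors. Which of their counts it holds, and whether counting used strand, is not stated. Of 12 libraries described, 11 are in the table, which has 27755 entries (626 without a symbol, and 1 repeated ID was dropped). Since the values are already scaled, raw depth is unknown and its part in the precision of low values cannot be given.

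Genes with a mean of at least 10 (18400) were tested on log2(value + 1) with limma 3.58.1 in R 4.3.3 (means of the 4 groups, moderated variance with a trend, Benjamini-Hochberg adjustment). Calls needed an adjusted p below 0.05 plus a fold change beyond 1.25, which the pseudocount of 1 makes smaller for low genes. Each library is 1 pup. Tables and figures were made with Python 3.11.15, pandas 2.3.3 and matplotlib 3.10.9. The code was tested on simulated data. Any of the 34 genes could be named, and of the wider neuron and glia lists the called genes, up to 8 per list by adjusted p. *Slc17a7* and *Thy1* fall outside this rule and were named after their values were seen, as was *Lgr5*. The members and lists were chosen with earlier results of these data known. Same-numbered libraries deviated together between untreated P1 and P4 libraries (correlations of 0.135, 0.136 and 0.115) and in no other comparison (-0.061 to 0.026). Alternatives covered the pseudocount, filters, scaling, *Xist* as a covariate, a replicate block, thresholds and each library left out.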

Additional observations from a re-analysis of the deposited data

How the results depend on the processing

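Of 192 values of the 8 calls under alternatives, all kept their direction, 174 kept the call and 18 lost it. Of 3477 values not called, 18 were called under an alternative. Between treated and untreated libraries at P1, 1 glia gene passed with quantile normalization and 1 at an adjusted p under 0.1. Leaving out each library gave 0 to 1 neuron and 0 to 1 glia genes there. Between untreated ages, 1 glia gene passed with log2 *Xist* as a covariate, and 2 to 4 neuron and 1 to 2 glia genes with a library left out. Between treated ages, 1 neuron gene passed without a variance trend and 1 with only the groups compared. With *Xist* as a covariate, 0 neuron and 0 glia genes passed there. A threshold of 0.1 on the adjusted p, without that covariate, gave 3 glia genes. Leaving out a library gave 1 to 2 neuron and 1 to 4 glia genes. A replicate block gave 2 glia genes between treated ages, with *Prx* added, and changed no other count. Some alternatives were chosen after seeing the data. Without both untreated replicates 3, 1 glia gene passed between untreated ages, and 1 neuron and 2 glia genes between treated ages. Library weights gave 3 glia genes between treated ages. At P4 and for the interaction, every alternative gave 0. The cause of these moves was not tested. Without the members taken as known in HCs or SCs, 3 levels moved by more than the SD of their group. They went to -0.35 (neuron, P4 treated 3), -0.64 (glia, P4 treated 1) and -0.80 (glia, P4 treated 3). Within that SD, the glia level of P1 treated 2 went from -0.62 to -0.32, that of P1 untreated 3 from 0.47 to 0.73, and those of P4 untreated 1 and 2 from -0.20 and -0.20 to -0.41 and -0.58.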
